A study of Arabidopsis thaliana with 4 samples.

Results

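The 9 genes described here are a core set of root hair and root epidermis genes of Arabidopsis thaliana: WER (AT5G14750), GL2 (AT1G79840), RHD6 (AT1G66470), RSL1 (AT5G37800), RSL4 (AT1G27740), EXPA7 (AT1G12560), EXPA18 (AT1G62980), PRP3 (AT3G62680) and COBL9 (AT5G49270). They were picked out by locus identifier and not by a measured value, but with earlier results of these data known. Of the 9, 6 were among the 2773 genes that the authors listed as induced, and 3 (GL2, RSL1 and RSL4) were in no list. RNA was sequenced from leaf explants of lbd16-2 mutant plants after 4 days (day 4) and 0 days (day 0) on callus inducing medium, and from explants of Col-0 wild-type plants at day 4 and day 0, with 1 library in each of these 4 groups. The explants, each plant's earliest leaf pair cut at an age of 12 days, were kept in the dark. LBD16 is an auxin-induced LOB-domain transcription factor gene of lateral root initiation, and callus inducing medium contains auxin and cytokinin. No group had a replicate library, so none of the differences below could be checked against replicates, and no test was run on them.

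Root epidermal cells become hair cells or non-hair cells according to their position over the cortex. In non-hair cells the MYB factor WER, in a complex with bHLH and WD-repeat proteins, turns on GL2, a homeodomain factor that blocks hair formation. WER also turns on CPC, a small MYB protein that moves into neighbouring cells and there opposes the WER complex. In hair cells, where GL2 is low, the bHLH factors RHD6 and RSL1 initiate a hair and act through later bHLH factors, among them RSL4 and RSL2, on genes for wall-loosening and wall-building proteins. A leaf normally makes no root hairs.

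Each listed gene has a level in each of its libraries, which is given here as normalised reads, that is, whole reads divided by the size factor of the library. The size factors, which stand for relative depth, were 1.68 for lbd16-2 at day 4, 1.08 for lbd16-2 at day 0, 1.41 for wild type at day 4 and 1.43 for wild type at day 0. Reads in the lbd16-2 list summed to 3595214 at day 4 and 92884 at day 0, against 2837436 at day 4 and 94199 at day 0 in the wild-type list. A list holds the genes whose level plus 1 was over 8-fold higher at day 4 than at day 0 (log2 fold over 3), with no limit on the p-value. Intervals in parentheses are exact 95% binomial counting intervals of a ratio, which take in the error of counting alone and set library against library rather than condition against condition. Against 0 reads at day 0 a fold is a lower bound, for which 3 reads stand in for the 0 (2.78 normalised reads in lbd16-2 and 2.09 in wild type). The label lbd16-2 was not checked by the reads of LBD16, since LBD16 was listed in both genotypes, with 518 normalised reads at day 4 in lbd16-2 and 981 in wild type (ratio 0.528, 0.484 to 0.575). The leaf origin could not be checked with these tables, because they hold induced genes only.

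The promoters of 3 members carry the sequence known as the root hair-specific cis-element (RHE), which was described from promoters of root hair genes, EXPA7 and EXPA18 among them. It is shown because these 3 genes, EXPA7, EXPA18 and PRP3, were all in the lbd16-2 list alone. Both strands of the 250 bases before each annotated gene start were searched, in the RefSeq annotation of TAIR10.1. The elements are written 5′ to 3′ on the strand of the match, with the fixed TG and CACG of the element in capitals. The EXPA7 element lies at chr1:4276427-4276443 on the plus strand, the EXPA18 element at chr1:23331523-23331538 on the plus strand and the PRP3 element at chr3:23182555-23182571 on the minus strand.
EXPA7: atagTGatccgCACGta
EXPA18: aacaTGaacgCACGtc
PRP3: taagTGtaatgCACGat

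The whole windows before the start of EXPA7 (chr1:4276255-4276504, plus strand) and of PRP3 (chr3:23182472-23182721, plus strand) overlap no other annotated gene. They are shown with the bases of the element in capitals, so that its distance from the gene start at the right-hand end can be read. The PRP3 element lies on the other strand, so that its capitals read as the reverse complement of the line above.
EXPA7 promoter: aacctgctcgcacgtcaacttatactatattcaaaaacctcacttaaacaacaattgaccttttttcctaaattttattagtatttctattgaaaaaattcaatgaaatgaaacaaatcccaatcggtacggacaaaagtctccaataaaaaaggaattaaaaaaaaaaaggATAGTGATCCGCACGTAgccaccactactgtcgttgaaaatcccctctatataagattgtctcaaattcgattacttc
PRP3 promoter: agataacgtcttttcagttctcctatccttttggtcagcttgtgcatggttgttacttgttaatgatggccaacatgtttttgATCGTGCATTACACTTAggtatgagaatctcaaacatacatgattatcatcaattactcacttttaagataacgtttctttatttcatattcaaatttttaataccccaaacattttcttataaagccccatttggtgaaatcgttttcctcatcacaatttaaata

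Counted from the gene start, the element ran from position -78 to -62 in EXPA7, from -40 to -25 in EXPA18 and from -167 to -151 in PRP3. Among all 27443 nuclear protein-coding genes, 207 (0.754%) had a match in the same window. COBL9 had none, and neither had WER, GL2, RHD6, RSL1 or RSL4. The matches in EXPA7 and EXPA18 are not independent of the element's description, and a match is a run of letters, not a tested site.

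Of the 9 members, 6 were in the lbd16-2 list and 2 in the wild-type list. Across all genes the authors tested, 9.18% were in the lbd16-2 list and 8.91% in the wild-type list. RHD6 and WER were the 2 members in both lists, and their day 4 levels differed little between the genotypes. COBL9, PRP3, EXPA7 and EXPA18 stood in the lbd16-2 list alone, a place taken by 2.42% of the genes tested in lbd16-2, and the wild-type list alone, which held no member, took in 2.14% of the genes tested in wild type. All 4 of these encode proteins of the wall or cell surface, whereas both shared members encode transcription factors. The wider set described below did not split this way. There, 6 wall and surface genes were in both lists, and the bHLH gene LRL3 was in the lbd16-2 list alone.

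**Figure D1:**
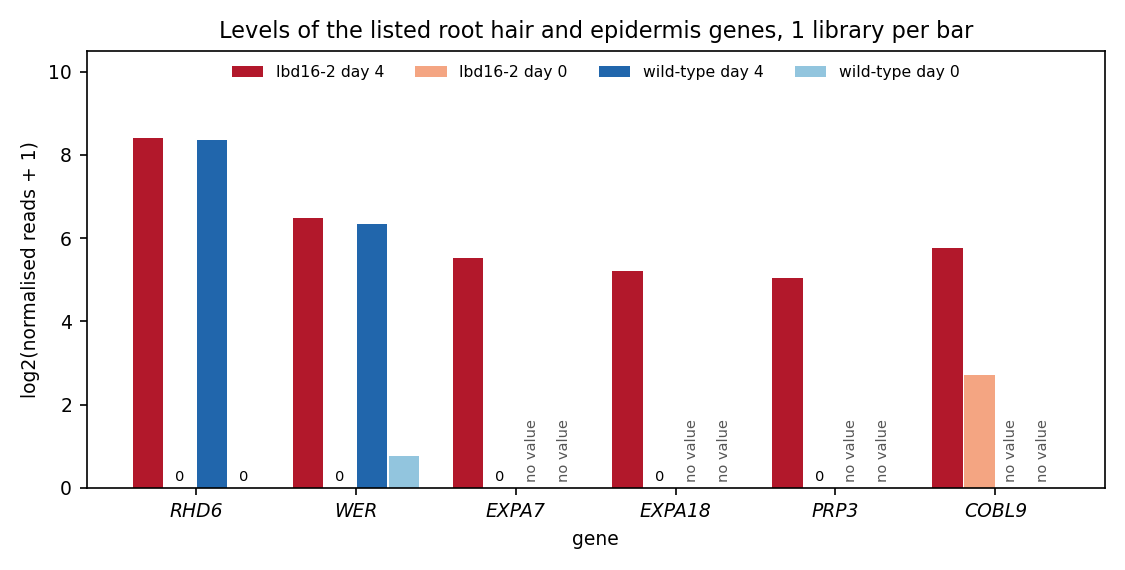
Level of each listed member in each library, as log2(normalised reads + 1), with 1 bar per library and a 0 where no read was counted; "no value" marks genes outside the wild-type list, whose wild-type levels were not analysed here. RHD6 and WER stood at about the same height in both genotypes at day 4, and 5 of the 6 genes had 0 reads in lbd16-2 at day 0.

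WER, the MYB factor of the non-hair fate, had 88.6 normalised reads in lbd16-2 at day 4 (149 reads) and 0 at day 0, against 80.0 in wild type at day 4 (113 reads) and 0.698 at day 0 (1 read). It was thus all but unread in both leaf libraries and present in both day 4 libraries. The day 4 level was at least 31.8-fold the day 0 level in lbd16-2 and 115-fold in wild type (20.2 to 4566). Between the genotypes, the day 4 ratio of lbd16-2 over wild type was 1.11 (0.862 to 1.43), an interval that spans 1. In the authors' deposited table the log2 fold of WER was 6.49 in lbd16-2 (FDR 0.610) and 5.58 in wild type (FDR 0.729), and no source used here says how p-values were derived without replicates.

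GL2, the homeodomain factor downstream of WER, was in neither list. It therefore had a log2 fold of at most 3 in each genotype or was not tested, and its levels were not analysed here. Of 15 patterning genes, WER and GL2 included, 2 (13.3%) were in the lbd16-2 list, 3 (20%) in the wild-type list and 12 in neither list, where 9.18% and 8.91% of all tested genes were in the lbd16-2 and the wild-type list. Among those 12 were the MYB genes MYB23 and GL1, the bHLH genes GL3 and EGL3, the WD-repeat gene TTG1, the WRKY gene TTG2, the receptor-like kinase gene SCM and the small MYB genes TRY, ETC1, ETC2 and ETC3. So of the WER complex and its targets described above, WER and CPC were listed, while GL2 and the partner bHLH and WD-repeat genes were not. The lists hold induced genes only, so an unlisted gene may still have been present at either day.

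CPC, the mobile antagonist of the WER complex, had 170 normalised reads in lbd16-2 at day 4 and 16.7 at day 0, against 352 in wild type at day 4 and 11.2 at day 0. Its day 4 level was 10.2-fold the day 0 level in lbd16-2 (6.33 to 17.4) and 31.5-fold in wild type (19.2 to 55.5). CPC therefore stood lower in lbd16-2 at day 4, at a ratio of 0.483 (0.417 to 0.560), while WER did not. JKD, a zinc finger gene that acts from the cortex on epidermal pattern, was in the wild-type list alone. A lower fold in lbd16-2 was a condition of entry there. JKD had 215 normalised reads in lbd16-2 at day 4 and 30.6 at day 0, against 502 in wild type at day 4 and 39.8 at day 0. Its fold was 7.01 in lbd16-2 (4.90 to 10.3) and 12.6 in wild type (9.64 to 16.9), and its day 4 ratio of lbd16-2 over wild type was 0.427 (0.375 to 0.486).

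RHD6, the bHLH factor that starts hair formation, had 340.1 normalised reads in lbd16-2 at day 4 (572 reads) and 0 at day 0, against 328 in wild type at day 4 (464 reads) and 0 at day 0. No read was counted in either leaf library, while both day 4 libraries had a level well above the floor. The day 4 level was at least 122-fold the day 0 level in lbd16-2 and at least 157-fold in wild type. The bounds differ because the floors of the day 0 libraries do, and the day 4 ratio of lbd16-2 over wild type was 1.04 (0.915 to 1.17). In the authors' deposited table the log2 fold of RHD6 was 8.41 in lbd16-2 (p = 8.88e-04, FDR 0.0596) and 8.36 in wild type (p = 6.93e-04, FDR 0.0521). RHD6 had the lowest FDR of the 6 listed members in that table, and none of the 6 was under 0.05.

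RSL1, which acts beside RHD6, and RSL4, a later factor whose amount sets hair length, were in neither list. Their log2 fold was at most 3 in each genotype, or they were not tested. The coding sequences of RHD6 and RSL1 were 68.1% identical with a longest shared run of 43 bases. Whether any reads matched both was not tested, and no source used here says how such reads were counted. Of the 9 bHLH genes in the list of root hair factors, 4 were in the lbd16-2 list, 3 of them also in the wild-type list. The other 5 were in neither. Across all genes tested, the shares were 9.18% in the lbd16-2 list and 8.91% in the wild-type list.

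The bHLH genes listed beside RHD6 had lower day 4 levels per kb of transcript, at 14.2 for RSL2, 38.1 for AT5G43175 and 26.5 for LRL3 in lbd16-2, where RHD6 had 238.5. RSL2, another late factor of hair growth, had 19.6 normalised reads in lbd16-2 at day 4 and 0 at day 0, against 29.7 in wild type at day 4 and 0.698 at day 0. AT5G43175, annotated as a bHLH DNA-binding protein, had 30.9 in lbd16-2 at day 4 and 0 at day 0, against 14.9 in wild type at day 4 and 0.698 at day 0. These genes lay on either side of equality at day 4: the ratio of lbd16-2 over wild type was 0.660 for RSL2 (0.405 to 1.07) and 2.08 for AT5G43175 (1.23 to 3.64). LRL3, a bHLH factor of root hair development, was in the lbd16-2 list alone, with 35.1 normalised reads at day 4 and 0 at day 0.

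EXPA7 and EXPA18 encode alpha-expansins, which loosen the wall where a hair bulges. In lbd16-2 EXPA7 had 44.6 normalised reads at day 4 (75 reads) and 0 at day 0, a fold of at least 16.0. EXPA18 had 36.3 at day 4 (61 reads) and 0 at day 0 in lbd16-2, a fold of at least 13.0. Both expansin genes were thus unread in the lbd16-2 leaf and were counted at low levels at day 4. In the authors' deposited table their log2 folds were 5.51 (FDR 0.902) and 5.22 (FDR 0.983). The 2 coding sequences were 70.9% identical with a longest shared run of 21 bases. EXPA7 overlaps AT1G12570 by 23 bases and EXPA18 overlaps AT1G62978 by 46 bases, both on the opposite strand, and neither neighbour was in a list. The window before EXPA18 runs into AT1G62978 too, and only its element is shown. Whether counting used the strand is also unstated in the sources used here.

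PRP3, a proline-rich structural protein of the root hair wall, had 32.1 normalised reads in lbd16-2 at day 4 (54 reads) and 0 at day 0. Its fold was at least 11.5, and the log2 fold in the authors' deposited table was 5.05 (FDR 1). COBL9, a glycosylphosphatidylinositol-anchored surface protein needed for hair tip growth, was the only listed member with several reads in the lbd16-2 leaf library. It had 52.9 normalised reads in lbd16-2 at day 4 (89 reads) and 5.57 at day 0 (6 reads), a ratio of 9.51 (4.20 to 26.6). With a log2 fold of 3.04 in the authors' deposited table (FDR 1), COBL9 stood just above the limit of 3, and its counting interval reaches well below 8-fold.

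For these 4 genes no wild-type value was analysed here, so a lower level in wild type was not measured. A gene with 0 reads at day 0 in wild type stays out of the wild-type list up to 7 normalised reads at day 4, which is 9 reads in that library. A gene with reads at day 0 can stay out at a higher level. Levels of this size were common among the genes in the lbd16-2 list alone: the median day 4 level of those 594 genes was 49.9 normalised reads, and 239 of them had 0 reads at day 0 in lbd16-2.

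Divided by transcript length, the day 4 levels in lbd16-2 put RHD6 first at 238.5 normalised reads per kb of transcript. WER came next at 73.3, then EXPA7 at 39.9, EXPA18 at 29.0, PRP3 at 26.3 and COBL9 at 23.4. In wild type RHD6 had 230.2 normalised reads per kb and WER 66.2. The 3 lowest members in this order lay within 29.0 to 23.4, on 54 to 89 reads each, and with 1 library no spread between samples was available to separate them. In bulk explants, fewer cells of a type and less RNA per cell cannot be told apart.

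The lists were also counted over a wider set of 59 root hair and epidermis genes, which includes the 9 members. Like the members, this set was chosen with earlier results of these data known. Of 20 wall and surface genes, 14 were in the lbd16-2 list and 6 in the wild-type list. Those 6 were shared, 8 genes were in the lbd16-2 list alone and 6 in neither. Without the 4 members among them, 4 of 16 wall and surface genes were in the lbd16-2 list alone and 6 were shared. Of 15 growth signalling and traffic genes, 5 were in the lbd16-2 list, 3 of them shared, and 10 were in neither, among them the NADPH oxidase gene RBOHC and the GTPase genes ROP2 and ROP4. Over all 59 genes, 25 (42.4%) were in the lbd16-2 list, 15 (25.4%) in the wild-type list and 33 in neither. Across all genes tested, 9.18% were in the lbd16-2 list and 8.91% in the wild-type list, and 2.42% and 2.14% in each list alone. Without the members, 19 of 50 were in the lbd16-2 list and 13 in the wild-type list, with 7 in the lbd16-2 list alone and 1 in the wild-type list alone.

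**Figure D2:**
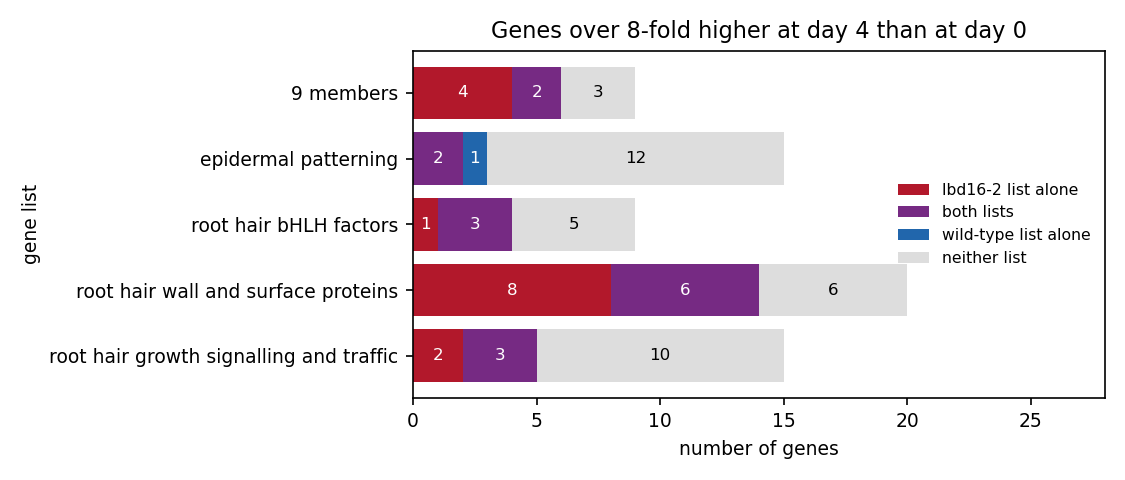
Number of genes of each list in the lbd16-2 list alone, in both, only in the wild-type list and in neither, where listed means over 8-fold higher at day 4 than at day 0 on the level plus 1. Of the wall and surface genes 8 were in the lbd16-2 list alone and 0 only in the wild-type list. Of the patterning genes 0 were in the lbd16-2 list alone and 1 only in the wild-type list. Across all genes tested, these shares were 2.42% in lbd16-2 and 2.14% in wild type.

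Taking the wall, surface, signalling and traffic genes as 1 set of 35, 10 (28.6%) were in the lbd16-2 list alone and 0 in the wild-type list alone. Across all genes tested, these shares were 2.42% in lbd16-2 and 2.14% in wild type. At so low a share, a 0 among 35 genes carries little information. Without the members the count in the lbd16-2 list alone was 6 of 31. Of the 10, 7 had 0 reads at day 0, and their day 4 levels ran from 12.5 to 81.4 normalised reads in lbd16-2. Beside EXPA7, EXPA18, PRP3 and COBL9 they were PRP1, a close relative of PRP3, XTH12, a xyloglucan-modifying enzyme, RHS12 and RHS13, named for root hair-specific expression, IRE, a protein kinase of hair elongation, and MRH2, a kinesin. PRP1 had 14.9 normalised reads at day 4, XTH12 21.4, RHS12 12.5 and RHS13 29.1, each with 0 at day 0. IRE had 61.2 at day 4 and 5.57 at day 0 (11.0-fold, 4.89 to 30.7), and MRH2 had 81.4 at day 4 and 9.28 at day 0 (8.78-fold, 4.63 to 18.7). Whether reads of related genes were shared was not tested here either. PRP3 and PRP1 were 73.7% identical over the coding sequence, with a longest shared run of 33 bases. XTH12 and the unlisted XTH13 were 89.4% identical, with a longest shared run of 47 bases.

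The 9 genes of that set with values in all 4 libraries were all higher in lbd16-2 than in wild type at day 4, with ratios of 1.30 to 5.83 and a median log2 difference of 0.94. Among the 1657 genes in both lists, 49.6% were higher in lbd16-2 at day 4, and the median log2 difference was -0.01 with quartiles of -0.70 and 0.57. Over 2-fold higher in lbd16-2 were 3 of the 9 on the log2(normalised reads + 1) scale, against 13.8% of the genes in both lists. The counting interval lay above 1 for 8 of the 9. None of the 9 is a member, and the direction was read from a set whose grouping by role was made with earlier results known.

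**Figure D3:**
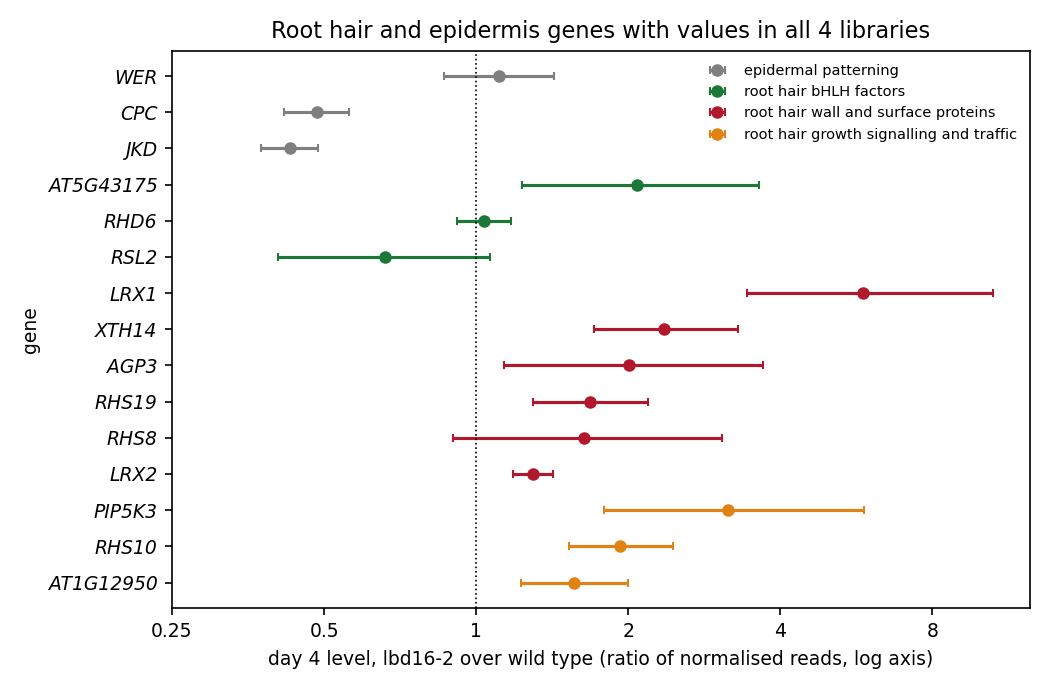
Ratio of the day 4 level in lbd16-2 over that in wild type, on a log axis, for the 15 root hair and epidermis genes with values in all 4 libraries; bars are 95% counting intervals and the dotted line marks a ratio of 1. The bars of WER, RHD6, RSL2 and RHS8 cross the line, those of CPC and JKD lie to its left, and those of AT5G43175 and of the other wall, surface, signalling and traffic genes, from LRX1 down, lie to its right.

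LRX1, a leucine-rich repeat extensin of the hair wall, was the farthest from equality. It had 66.0 normalised reads in lbd16-2 at day 4 (111 reads) and 0 at day 0, against 11.3 in wild type at day 4 (16 reads) and 0 at day 0, a day 4 ratio of 5.83 (3.44 to 10.6). LRX1 also carries the element found in EXPA7, EXPA18 and PRP3 (chr1:4069899-4069914, minus strand).
LRX1: aactTGgacgCACGtt
LRX2, which acts with LRX1, differed less between genotypes and was more abundant, at 305 normalised reads per kb in lbd16-2 at day 4 where LRX1 had 24.5. It had 721 normalised reads in lbd16-2 at day 4 and 6.49 at day 0, against 555 in wild type at day 4 and 17.4 at day 0, a day 4 ratio of 1.30 (1.18 to 1.42). XTH14, a xyloglucan-modifying enzyme of root hairs, had 86.8 in lbd16-2 at day 4 and 0 at day 0, against 36.8 in wild type at day 4 and 0.698 at day 0, with a day 4 ratio of 2.36 (1.71 to 3.30).

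PIP5K3, a lipid kinase of the growing hair tip, had 35.7 normalised reads in lbd16-2 at day 4 and 11.3 in wild type at day 4, with 0 at day 0 in both (day 4 ratio 3.15, 1.79 to 5.86). RHS10, a receptor-like kinase that restrains hair elongation, had 143 in lbd16-2 at day 4 and 6.49 at day 0, against 74.3 in wild type at day 4 and 7.67 at day 0 (day 4 ratio 1.93, 1.53 to 2.45). So the higher group held a restraining gene as well as growth genes. The day 4 ratio was 2.01 for the arabinogalactan protein gene AGP3 (1.13 to 3.70), 1.68 for RHS19 (1.30 to 2.19), 1.63 for RHS8 (0.901 to 3.06) and 1.56 for AT1G12950 (1.23 to 2.00).

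Over the 59 genes, 9 had the root hair element in the 250 bases before the start. Of these, 7 were among the 20 wall and surface genes and 2 among the 15 signalling and traffic genes. The patterning and the bHLH genes had 0. Since the element was described from promoters of root hair genes, matches among root hair genes are not independent of its description. The contrast between these lists is therefore a description only. Beside EXPA7, EXPA18, PRP3 and LRX1, the listed ones were PRP1 (chr1:20504772-20504788, minus strand) and RHS13 (chr4:993233-993249, minus strand).
PRP1: atagTGttatgCACGat
RHS13: ataaTGcgactCACGtc
The remaining 3, MRH6, RHS15 and RHS18, were in neither list, so the element was found both in listed and in unlisted genes. Over whole lists the share was 28 of 2187 promoters (1.28%) in the lbd16-2 list and 29 of 2125 (1.36%) in the wild-type list, and 9 of 559 (1.61%) in the lbd16-2 list alone and 10 of 497 (2.01%) in the wild-type list alone.

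**Figure D4:**
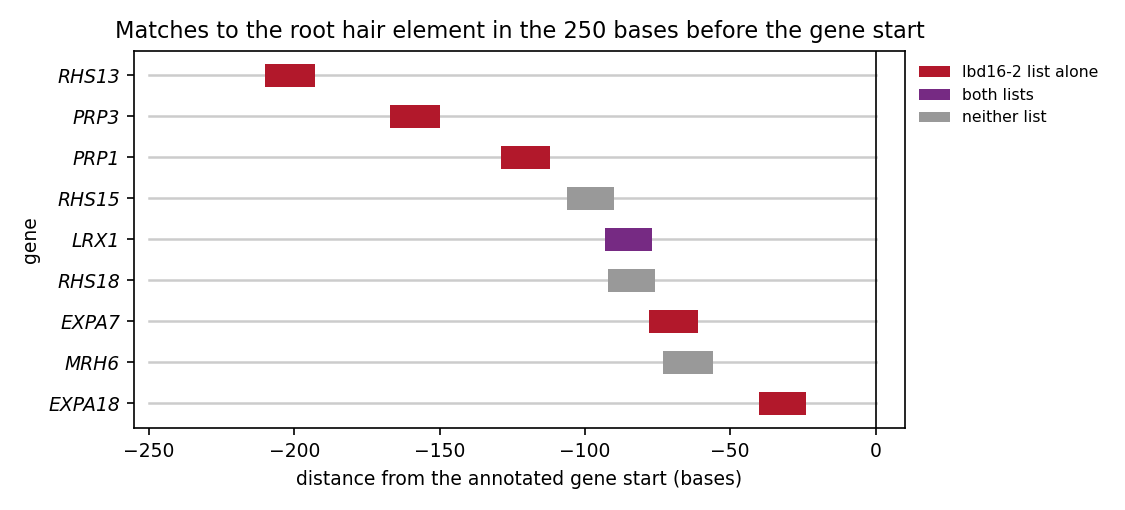
Position of the root hair element in the 250 bases before the gene start, in bases from the start, for the 9 genes of the 59 with a match; colour gives the list of the gene. The matches are scattered over the window. In the lbd16-2 list alone were 5 of the 9 genes, with 1 in both lists and 3 in neither. Of the 35 wall, surface, signalling and traffic genes, with or without a match, 28.6% were in the lbd16-2 list alone. Across all genes tested in lbd16-2 the share was 2.42%.

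Markers of the root cap and of the root stem cell niche did not follow the wall genes. All 4 root cap markers (FEZ, SMB, BRN1 and BRN2) were lower in lbd16-2 at day 4. So were all 4 root stem cell niche markers (WOX5, PLT1, PLT2 and BBM). Summed levels for the root cap were 568 normalised reads in lbd16-2 and 1503 in wild type. For the niche they were 2006 in lbd16-2 and 6762 in wild type. BRN2 was in the wild-type list alone, where a lower fold in lbd16-2 was a condition of entry, so its direction carries little information. The rest of these markers were in both lists. Of 4 shoot epidermis markers only PDF1 was listed, in wild type alone and so under the same condition. PDF1 had 1027 normalised reads in lbd16-2 and 3343 in wild type at day 4. At day 0 PDF1 was the higher in lbd16-2, with 715 normalised reads in lbd16-2 and 294 in wild type (ratio 2.43, 2.15 to 2.74). Of 7 endodermis markers only MYB36 was listed, at 8.32 normalised reads in lbd16-2 and 12.0 in wild type at day 4. Its day 4 ratio of 0.692 had an interval that spans 1 (0.316 to 1.49). Of 5 vascular markers none was listed, so no direction could be read for them. The part of all these tissues in the levels of the root hair genes was not tested.

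The genes whose 4 levels were most like those of RHD6, by Euclidean distance over the 4 log2 levels among 2175 genes, were AT3G59850, a pectin lyase-like protein (distance 0.18), EXPA17, an expansin (0.24), and ABCG35, a transporter (0.31). Each had 0 reads in both leaf libraries. AT3G59850 had 330.5 normalised reads in lbd16-2 and 371 in wild type at day 4, EXPA17 had 325 in lbd16-2 and 279 in wild type, and ABCG35 had 290.1 in lbd16-2 and 284 in wild type. For WER the nearest were AT3G26550, a C1 domain protein (0.21), AT2G26380, a leucine-rich repeat protein (0.24), and ORS1, an ORGAN SIZE-like protein (0.38). At day 4 AT3G26550 had 100.5 normalised reads in lbd16-2 and 74.3 in wild type, AT2G26380 had 91.6 in lbd16-2 and 94.1 in wild type, and ORS1 had 115 in lbd16-2 and 77.1 in wild type. Like WER, all 3 had 0 normalised reads in the lbd16-2 leaf and 0.698 in the wild-type leaf.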

How the data were processed

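RNA was sequenced in 4 libraries, 1 per group. Per the submitters' processing notes, the tools were STAR, Cufflinks, DESeq, Trim Galore and FastQC, and the build was TAIR10. Not given in the sources used here are their versions, strand use and the treatment of multiply matching reads. The authors deposited 4 tables of induced genes, with log2 levels per library, log2 fold changes, p-values and FDR values (q-values), and, per the file headers, a ratio of the folds of shared genes. The deposited p-values are the authors' own. The deposited log2 levels are log2 of normalised reads plus 1: undone with 1 size factor per library, 100% of values were whole within 0.001 reads. This scale was inferred from the values. A log2 fold is on the log2(normalised reads + 1) scale, which understates the change of genes with few reads.

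Whole reads, normalised reads, ratios with exact binomial intervals (95%) and folds against a floor of 3 reads were computed with Python 3.11.15, numpy 2.4.6, pandas 2.3.3 and scipy 1.17.1, and figures with matplotlib 3.10.9. How many genes the authors tested (24518 in lbd16-2 and 24442 in wild type) was inferred from ranks of FDR over p. No test was made, since each group is 1 library. Total depth is unknown, because only listed genes were analysed: at day 4 no gene of the lbd16-2 list had under 12 reads in lbd16-2, and no gene of the wild-type list under 10 in wild type. The size factors and the coverage of the ratio intervals were tested on simulated reads, and the inferred number of tests on simulated p-values. The other steps were not tested in this way.

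The members and the lists of 59 pathway genes and 5 sets of markers were chosen with earlier results of these data known. Named genes were the members, the pathway and marker genes in a deposited list, the 3 nearest genes of each member with 4 values, and LBD16. The unlisted genes named are outside that rule and were chosen after the lists were seen. Gene names, coordinates, transcript lengths and promoter sequences are those of RefSeq for TAIR10.1. The authors' copy of TAIR10 was not compared with it. Coding sequences were aligned with Biopython 1.88. Not analysed here were wild-type levels of the 594 genes outside the wild-type list. Alternatives were another fold limit, a filter on level, the authors' FDR, pseudocounts of 0.1 and 5, centring on the genes in both lists and a wider promoter window.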

Additional observations from a re-analysis of the deposited data

How the results depend on the processing

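No alternative replaces a replicate, and no paired analysis was possible because each group is 1 library and no test was made. The number of members in the lbd16-2 list went to 5 at a log2 fold over 4, to 3 with at least 50 normalised reads at day 4, and to 0 at the authors' FDR under 0.05; in the wild-type list it was 2 under the first pair of limits and 0 at that FDR. Of the 59 pathway genes, 18 were in the lbd16-2 list at a log2 fold over 4, 12 at the level filter and 0 at that FDR, and in the wild-type list 8, 8 and 0. These limits admit fewer genes by construction. The share of all tested genes that pass them was not computed, so these counts cannot be set against such a share. The log2 fold of COBL9 in lbd16-2 was -1.93 when centred on the median fold of the genes in both lists, that is, its fold was below that of the typical shared gene. Centred in the same way, PRP3 had 0.08, EXPA18 0.25 and EXPA7 0.54 in lbd16-2, little above the typical shared gene. WER had 1.52 in lbd16-2 and 0.52 in wild type, and RHD6 had 3.45 in lbd16-2 and 3.31 in wild type. Members with 0 reads at day 0 have no upper limit to their fold, and their log2 folds moved with the pseudocount: RHD6 in lbd16-2 had 11.7 at 0.1 and 6.11 at 5, against 8.41 at 1, and PRP3 had 8.33 at 0.1 and 2.89 at 5, against 5.05 at 1. The median day 4 difference of RHD6 and WER was 0.09 to 0.11 throughout, against 0.10, and 3 members had the root hair element in either window. Added after the values were seen, a mean level of at least 20 normalised reads left 7 of 7 wall and signalling genes higher in lbd16-2 at day 4, against 9 of 9, and 8 of the 9 had a counting interval above 1. Centring on the genes in both lists shifts each of these differences by 0.01 and so could not turn any of them. Genes with few reads carry wide intervals, and genes induced under 8-fold in both genotypes were not analysed here.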
